A study of Mus musculus with 4 samples.

Results

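The genes described here encode 34 chromatin repressors that keep endogenous retroviruses and genes of the 2-cell (2C) embryo silent in mouse embryonic stem cells (ESCs). They were chosen by name, with earlier results of these data known. They are subunits of the KAP1/SETDB1, HUSH, G9a/GLP, LSD1/CoREST, HP1/SUV39H and PRC1.6 complexes, histone chaperones including CAF-1, SUMO factors and 3 related repressors. All 34 were found among the 55418 rows of the gene table, and all 34 were among the 18444 genes with enough counts to be tested. RNA-seq libraries came from 2 samples of wild-type (WT) E14 ESCs and from 2 Pim3-/- clones of that line made with CRISPR-Cas9, 1 library each. Pim3 encodes a serine/threonine kinase, and both groups were grown on gelatin in medium with 15% FBS and LIF at 10 ng/mL. Each Pim3-/- library is a single clone, so that differences between genotypes cannot be told apart from differences between these cultures and clones.

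Silencing of retroviruses in ESCs starts with sequence recognition. KRAB zinc finger proteins bind a provirus and recruit KAP1 (Trim28), which brings the H3K9 methyltransferase SETDB1 and HP1 proteins, while HUSH spreads and maintains the mark. The 2C program, marked by the retrovirus MuERVL (listed as MERVL-int with the LTR MT2_Mm), depends on other repressors, among them LSD1, G9a, CAF-1, SUMO and PRC1.6, whose loss is known to raise the share of 2C-like cells.

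The gene table held 22029427 to 25668307 counts per library and the table of transposable elements (TEs) 546500 to 821065. Counts were scaled to CPM (counts per 1000000 counts of a table) with TMM factors. Each gene was tested with the quasi-likelihood test of edgeR, and p-values were adjusted by Benjamini-Hochberg over all 18444 genes (adjusted p below, call at 0.05). With TMM the median log2 fold change of all genes was 0.07. Scaling by library totals put this median at 0.52 and so moved every gene upward by about 0.45. Counts of Pim3 were 4392 and 4953 for WT and 4970 and 4804 for Pim3-/- replicates 1 and 2 (log2 fold change -0.27, or 0.19 with library totals), so a count over the whole gene does not test the labels, and directions below are between libraries as labelled. The ESC markers were abundant in all libraries, with summed levels of 9632 to 10634 CPM in WT and 6811 to 6998 CPM in Pim3-/- ESCs, where Pou5f1 (log2 fold change -1.12) was among 3 of 10 that fell and Klf4 (1.44) was the 1 that rose (median of the list -0.04). All 7 tested primitive endoderm markers of 8 listed rose, from summed levels of 4.18 and 6.36 CPM to 40.7 and 24.5 CPM, and none of the 8 was at 0 in all 4 libraries, although Foxa2, which was not tested, had no count in WT ESCs and Sox7 had none in WT replicate 2. Trophoblast markers, of which 3 of 6 tested rose, summed to 71.2 to 73.5 CPM in WT and 71.5 to 97.8 CPM in Pim3-/- ESCs, and fibroblast markers summed to 24.4 to 25.6 CPM in WT and 28.7 to 30.1 CPM in Pim3-/- ESCs, with Lum at 0 and Twist1 (log2 fold change 1.18) the 1 of 3 tested that rose. Mesoderm markers summed to 5.70 to 6.84 CPM in WT and 13.7 to 24.9 CPM in Pim3-/- ESCs, where the 1 of 4 tested that rose was Eomes, a gene of the trophoblast list too, at 3.86 and 3.05 CPM in WT and 10.5 and 22.2 CPM in Pim3-/- ESCs. For neuroectoderm markers the sums were 139 to 148 CPM and 104 to 115 CPM, and 2 of 6 rose and 1 fell. The part of such cells in the results below was not tested, and in bulk RNA fewer cells of a type and less RNA per cell cannot be told apart. Beside these marker counts, 17.6% of all tested genes were called higher and 16.2% lower. Among genes at low levels, 22.4% under 0 log2 CPM and 23.5% between 0 and 2 were called higher, so a rise of 1 of 3 or 1 of 4 is near the background.

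Of the 34 repressor genes, 3 were upregulated and 8 were downregulated in Pim3-/- ESCs. Zfp809, Wiz and Rcor1 rose, and Sumo2, Asf1a, Hdac1, Chaf1b, Cbx3, Cbx1, Ehmt2 and Morc3 fell. Among all tested genes 33.8% were called, 17.6% higher and 16.2% lower, so the repressors had a smaller share of upregulated genes (8.82%) and a larger share of downregulated genes (23.5%) than the table as a whole, a difference to which no test was applied. Their log2 fold changes ran from -1.21 to 0.97 with a median of -0.20, which is 0.27 below the median of all genes, and 23 of 34 were below 0. Groups did not overlap in TMM-scaled CPM for 23 of the 34, 6 higher and 17 lower in Pim3-/- ESCs, against 72.5% of all genes, 38.3% higher and 34.2% lower. Library totals changed this balance to 10 called higher and 2 lower, with a median of 0.25, against 41.7% of all genes called, 35.8% higher and 5.92% lower. Under the 3 scalings tried, 5 members kept a call in the same direction (Zfp809, Wiz, Rcor1, Asf1a and Sumo2). With 1 WT library left out few or none of the members were called. Such a fit leaves 1 library in a group, and its share of all genes called is not given, so only fold changes are read. Across the fits with 1 library left out, log2 fold changes ran from -1.33 to -1.14 for Sumo2 and from -1.23 to -1.05 for Asf1a. They ran from 0.74 to 1.10 for Rcor1, 0.86 to 0.99 for Zfp809 and 0.45 to 0.63 for Wiz.

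**Figure D1:**
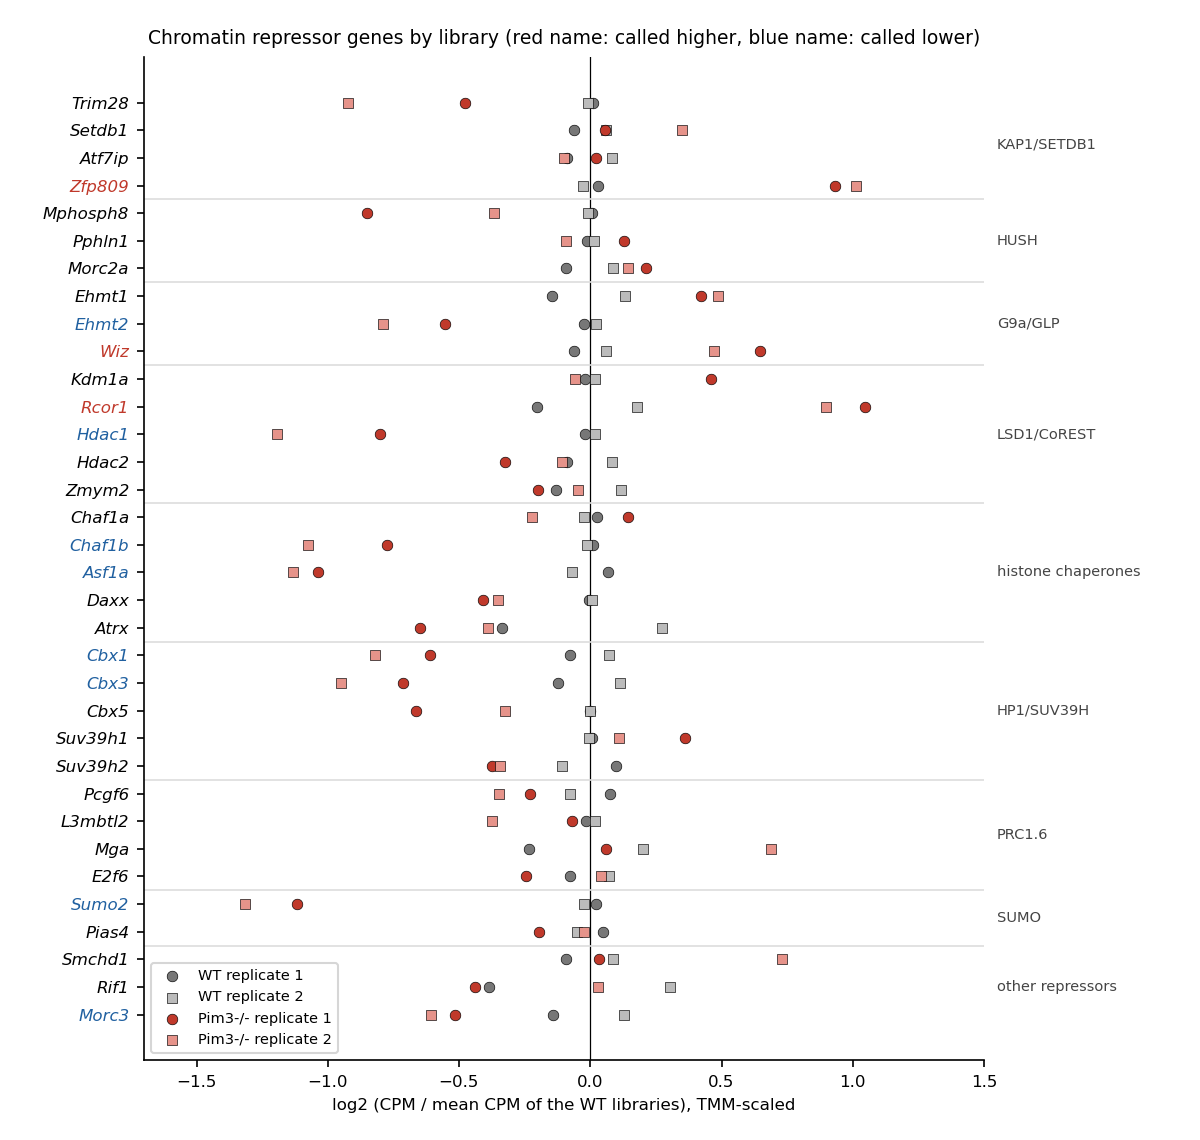
TMM-scaled CPM of each repressor gene in each library, as the log2 ratio to the mean of the WT libraries (x axis), with genes grouped by complex (y axis). Grey symbols are WT and red symbols Pim3-/- libraries; Sumo2, Hdac1, Chaf1b and Asf1a lie farthest to the left and Zfp809 and Rcor1 farthest to the right.

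Of the 4 KAP1/SETDB1 genes, only the sequence-specific factor Zfp809 was called with TMM, and Zfp809 and Setdb1 were with library totals. Trim28, the corepressor that KRAB zinc finger proteins recruit, had counts of 39564 and 46172 in WT ESCs and of 39314 and 27938 in Pim3-/- ESCs. Its scaled level was 2053 CPM ± 19.03 (SD, n = 2) in WT and 1278 CPM ± 275 (SD, n = 2) in Pim3-/- ESCs, without overlap, yet the log2 fold change of -0.68 (SE 0.24) had an adjusted p of 0.059, and only the Wald test of DESeq2 and 3 other alternatives placed it past the threshold. Per kilobase of exon it was the most abundant member, at 494 CPM/kb in WT ESCs. Setdb1, the methyltransferase, had counts of 1902 and 2449 in WT ESCs and of 2876 and 3405 in Pim3-/- ESCs, with a log2 fold change of 0.21 (SE 0.18) and overlapping scaled levels, or 0.66 (adjusted p = 0.027) with library totals. Atf7ip, which stabilises SETDB1 in the nucleus, had 932, 1239, 1400 and 1244 counts in WT replicates 1 and 2 and Pim3-/- replicates 1 and 2, and its log2 fold change of -0.04 turned to 0.41 with library totals.

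Zfp809, a KRAB zinc finger protein that recognises the proline primer binding site of MLV-like and VL30 proviruses, had counts of 80 and 91 in WT ESCs and of 209 and 213 in Pim3-/- ESCs. Its level rose from 4.10 CPM ± 0.11 to 8.05 CPM ± 0.31 (SD, n = 2), 1.96-fold (log2 fold change 0.97, SE 0.26, adjusted p = 0.025), and the replicates of each group lay close together. It was also the least abundant member per kilobase of exon, at 1.38 CPM/kb in WT ESCs.

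With TMM, edgeR called none of the 3 HUSH members, while 1 had an unadjusted p under 0.05 and was called by the Wald test. Mphosph8, the chromodomain subunit that binds methylated H3K9, had counts of 2189 and 2564 in WT ESCs and of 1683 and 2276 in Pim3-/- ESCs. The scaled groups did not overlap, at 114 CPM ± 0.76 and 75.7 CPM ± 17.8 (SD, n = 2), and the log2 fold change was -0.59 (SE 0.20, adjusted p = 0.057, or 0.047 with the size factors of DESeq2). Pphln1, the periphilin subunit, was at 31.2 CPM ± 0.41 and 31.7 CPM ± 3.45 (SD, n = 2), with a log2 fold change of 0.02 that became -0.02 with the size factors of DESeq2. Morc2a, the ATPase that HUSH recruits, was at 67.1 CPM ± 5.77 and 75.9 CPM ± 2.45 (SD, n = 2), with a log2 fold change of 0.18, and was called higher with library totals (0.63, adjusted p = 0.026).

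Of the G9a/GLP enzymes Ehmt2 fell with TMM, and Ehmt1 had a log2 fold change of the opposite sign that was not called. Ehmt2 (G9a), which together with GLP deposits mono- and dimethylation on H3K9, had counts of 3080 and 3758 in WT ESCs and of 2975 and 2439 in Pim3-/- ESCs. Its level fell from 163 CPM ± 3.63 to 103 CPM ± 11.9 (SD, n = 2), with a log2 fold change of -0.67 (SE 0.17, adjusted p = 0.024), and -0.21 with library totals, where it was not called. Ehmt1 (GLP), its partner in the same heterodimer, had counts of 859 and 1230 in WT ESCs and of 1772 and 1789 in Pim3-/- ESCs, with a log2 fold change of 0.45 (SE 0.17, adjusted p = 0.075) without overlap, and was called with library totals (0.90, adjusted p = 0.0082). Wiz, the zinc finger protein that holds the heterodimer on chromatin, had counts of 544 and 700 in WT ESCs and of 1238 and 1061 in Pim3-/- ESCs. It rose from 29.7 CPM ± 1.77 to 43.8 CPM ± 3.70 (SD, n = 2), with a log2 fold change of 0.56 (SE 0.17, adjusted p = 0.036), a call lost without a filter on low counts and in the Wald test. Transcripts on the opposite strand cover 22.7% of the Wiz exons, and whether the counting used strand is not given in the sources used here.

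A ratio of 2 genes within a library does not depend on the scaling of that library. It can still shift where the 2 genes differ in expression level. The median log2 fold change of all genes was -0.09 between 4 and 6 log2 CPM and -0.41 between 6 and 8. Ratios of other gene pairs were not computed as a background, and 72.5% of all tested genes did not overlap between the groups. Exon length here is that of all annotated exons of a gene joined, not of an expressed transcript, so shifts between groups are read. Per exon length, the log2 ratio of Ehmt1 to Ehmt2 was -2.41 and -2.18 in WT and -1.31 and -1.01 in Pim3-/- ESCs. In linear terms this ratio was 0.189 and 0.221 in WT and 0.403 and 0.496 in Pim3-/- ESCs, and this was the largest shift among the 8 ratios computed (1.13 on the log2 scale).

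Within LSD1/CoREST the scaffold and a deacetylase moved apart. Rcor1 (CoREST), which links the demethylase to HDAC1 and HDAC2 and to nucleosomes, had counts of 350 and 540 in WT ESCs and of 1162 and 1012 in Pim3-/- ESCs. It rose from 21.1 CPM ± 3.94 to 41.4 CPM ± 3.03 (SD, n = 2), 1.96-fold (log2 fold change 0.97, SE 0.19, adjusted p = 0.010), and 1.42 with library totals. Hdac1, a class I deacetylase shared by several corepressors, had counts of 6226 and 7560 in WT ESCs and of 5050 and 3716 in Pim3-/- ESCs. It fell from 329 CPM ± 6.19 to 167 CPM ± 31.9 (SD, n = 2), with a log2 fold change of -0.98 (SE 0.20, adjusted p = 0.011), and -0.53 with library totals (adjusted p = 0.065). The coding sequence of Hdac1 has near-identical matches in 3 other annotated genes, so that some of its reads are uncertain.

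The other LSD1/CoREST members were not called with TMM. Kdm1a (LSD1), the H3K4 demethylase, had counts of 5237 and 6355 in WT ESCs and of 10169 and 6865 in Pim3-/- ESCs, so the Pim3-/- clones differed more from each other (324 CPM ± 81.1, SD, n = 2) than their mean did from the WT mean of 277 CPM. Its log2 fold change of 0.22 became -0.08 without Pim3-/- replicate 1 and was called higher with library totals (0.68, adjusted p = 0.039). Hdac2 had counts of 2207 and 2944 in WT ESCs and of 2614 and 2933 in Pim3-/- ESCs and a log2 fold change of -0.21, and Zmym2, a zinc finger protein of the complex, one of -0.12, and both were above 0 with library totals (0.24 and 0.33). The log2 ratio of Hdac1 to Hdac2 per exon length went from 1.87 and 1.74 in WT to 1.33 and 0.72 in Pim3-/- ESCs. In linear terms the ratio was 3.66 and 3.33 in WT and 2.51 and 1.65 in Pim3-/- ESCs, without overlap.

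**Figure D2:**
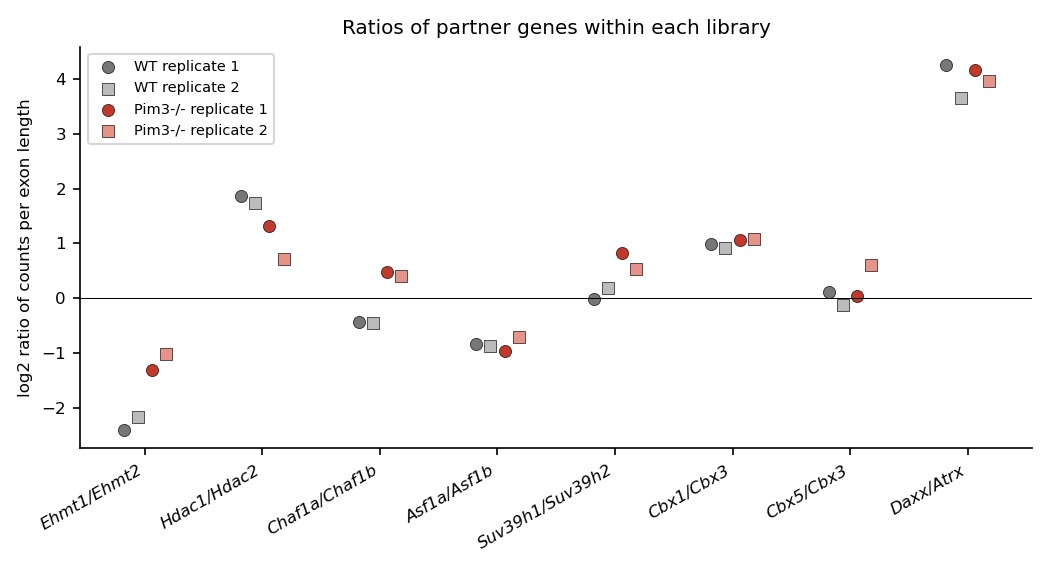
Log2 ratios of counts per exon length for 8 pairs of partner genes (x axis), 1 symbol per library. Ehmt1/Ehmt2, Chaf1a/Chaf1b and Suv39h1/Suv39h2 are higher and Hdac1/Hdac2 lower in both Pim3-/- libraries, while Asf1a/Asf1b, Cbx5/Cbx3 and Daxx/Atrx overlap. Cbx1/Cbx3 is also higher in both Pim3-/- libraries (1.06 and 1.08, against 0.998 and 0.911 in WT), by a small amount.

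All 5 histone chaperone genes had negative log2 fold changes with TMM, and 2 of them were called. Chaf1b, the p60 subunit of CAF-1, which deposits H3-H4 behind the replication fork, had counts of 1729 and 2014 in WT ESCs and of 1398 and 1095 in Pim3-/- ESCs. It fell from 89.6 CPM ± 0.95 to 47.4 CPM ± 7.002 (SD, n = 2), with a log2 fold change of -0.92 (SE 0.17, adjusted p = 0.0095), and -0.47 with library totals (adjusted p = 0.072). Asf1a, which hands H3-H4 to CAF-1 and to HIRA, had counts of 1740 and 1872 in WT ESCs and of 1129 and 1019 in Pim3-/- ESCs. It fell from 86.8 CPM ± 5.79 to 40.9 CPM ± 1.96 (SD, n = 2), with a log2 fold change of -1.08 (SE 0.16, adjusted p = 0.0053), and remained called with library totals (-0.63, adjusted p = 0.020). Mcm9 on the opposite strand overlaps 48.0% of the Asf1a exons.

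Chaf1a, the p150 subunit of CAF-1, did not follow p60. It had counts of 2426 and 2772 in WT ESCs and of 3675 and 2752 in Pim3-/- ESCs, with a log2 fold change of -0.03 (SE 0.19) with overlapping levels, and 0.43 with library totals. The log2 ratio of Chaf1a to Chaf1b per exon length was -0.43 and -0.46 in WT and 0.47 and 0.41 in Pim3-/- ESCs, without overlap. Its sign rests on the annotated exon lengths, since raw counts of Chaf1a were above those of Chaf1b in WT ESCs too. Which of the transcripts was more abundant is therefore not shown. Ubxn6 on the opposite strand overlaps 52.5% of the Chaf1a exons, and its part in this ratio was not tested. The paralog Asf1b fell with Asf1a (log2 fold change -1.09, SE 0.18, adjusted p = 0.0069), and their ratio overlapped between the groups. Daxx and Atrx, which together deposit H3.3 at silent repeats, had log2 fold changes of -0.38 and -0.52 (adjusted p = 0.095 and 0.12), and Daxx had 0.07 with library totals.

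Replication genes gave the context for the replication-coupled chaperones. Of 30 tested, 17 fell and none rose (56.7% lower), with a median log2 fold change of -0.68. Of all genes 16.2% fell, and this share was 39.3% between 6 and 8 log2 CPM and 54.4% over 8 log2 CPM. Pcna, the sliding clamp that recruits CAF-1, had -1.67. The summed level of the 30 was 7282 and 7247 CPM in WT and 5294 and 3759 CPM in Pim3-/- ESCs. With library totals 8 of 30 fell (26.7%, beside 5.92% of all genes). The part of this change in replication genes in the values of Chaf1b, Asf1a and Asf1b was not tested.

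Among HP1 genes, Cbx1 and Cbx3 fell and Cbx5 was not called. Cbx1 (HP1 beta) had counts of 3890 and 5100 in WT ESCs and of 3748 and 3127 in Pim3-/- ESCs, a change from 214 CPM ± 15.6 to 131 CPM ± 13.5 (SD, n = 2) with a log2 fold change of -0.71 (SE 0.18, adjusted p = 0.022). Cbx3 (HP1 gamma) had counts of 2732 and 3803 in WT ESCs and of 2526 and 2074 in Pim3-/- ESCs, a change from 155 CPM ± 17.9 to 87.5 CPM ± 10.0 (SD, n = 2) with a log2 fold change of -0.83 (SE 0.18, adjusted p = 0.014). Neither was called with library totals (-0.26 and -0.38). The coding sequence of Cbx3 has near-identical matches in 11 other annotated genes, among them pseudogenes, and that of Cbx1 in 1. Cbx5 (HP1 alpha), which had counts of 4420 and 5231 in WT ESCs and of 3894 and 4757 in Pim3-/- ESCs, had a log2 fold change of -0.48 (SE 0.19, adjusted p = 0.084). The composition of HP1 transcripts per exon length changed little, with Cbx1 at 49.0% and 49.5% in WT and 50.7% and 45.6% in Pim3-/- ESCs. Cbx5 made up 26.4% and 24.1% in WT, 25.0% in Pim3-/- replicate 1, within the WT range, and 32.9% in Pim3-/- replicate 2, above it.

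Suv39h1 and Suv39h2, the enzymes that place the H3K9me3 mark on pericentric heterochromatin, were not called with TMM, where their log2 fold changes had opposite signs. Suv39h1 had counts of 591 and 693 in WT ESCs and of 1054 and 855 in Pim3-/- ESCs, with a log2 fold change of 0.24 (SE 0.17) that was called with library totals (0.69, adjusted p = 0.019), and Suv39h2 had counts of 497 and 509 in WT ESCs and of 499 and 492 in Pim3-/- ESCs, one of -0.36 (SE 0.18), or 0.10 with library totals. Their log2 ratio per exon length moved from -0.01 and 0.19 in WT to 0.82 and 0.54 in Pim3-/- ESCs, without overlap.

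Sumo2 had the lowest log2 fold change of all members. SUMO2, the modifier attached to KAP1 and other repressors, is encoded by a gene with counts of 9639 and 11055 in WT ESCs and of 6093 and 5142 in Pim3-/- ESCs. Its level fell from 496 CPM ± 10.7 to 214 CPM ± 20.4 (SD, n = 2), to 0.43 of the WT level (log2 fold change -1.21, SE 0.19, adjusted p = 0.0056), and with library totals it remained called (-0.76, adjusted p = 0.014). At 286 CPM/kb it was second to Trim28 in level per exon length in WT ESCs. Its coding sequence has near-identical matches in 13 other annotated genes, among them pseudogenes, the most among members. Pias4, a SUMO E3 ligase, had counts of 1282 and 1417 in WT ESCs and of 1510 and 1640 in Pim3-/- ESCs, with a log2 fold change of -0.11, or 0.35 with library totals.

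With TMM, edgeR called none of the 4 PRC1.6 genes and none had an unadjusted p under 0.05, nor did the Wald test call any, while 1 of 4 was called higher with library totals. Pcgf6, the subunit that defines this Polycomb complex, had a log2 fold change of -0.29 (SE 0.16), L3mbtl2 one of -0.21 (SE 0.18) and E2f6 one of -0.09 (SE 0.19), and all 3 were above 0 with library totals (0.17, 0.24 and 0.36). Mga, the scaffold that binds MAX at E-boxes, had counts of 912 and 1455 in WT ESCs and of 1557 and 2327 in Pim3-/- ESCs, with a log2 fold change of 0.41 (SE 0.25) with overlapping levels, and with library totals it was the one called (0.85, adjusted p = 0.031).

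Of the related repressors only Morc3 was called with TMM. Morc3, a MORC family ATPase, had counts of 1350 and 1928 in WT ESCs and of 1452 and 1316 in Pim3-/- ESCs, a change from 77.8 CPM ± 10.4 to 52.7 CPM ± 2.37 (SD, n = 2) with a log2 fold change of -0.56 (SE 0.17, adjusted p = 0.040), a call lost when at least 10 counts were required in every library and with library totals (-0.11, adjusted p = 0.65). Morc3 lies 7.8 kb from Chaf1b on chromosome 16, the closest pair of members, and both fell. Smchd1, an SMC-family protein of X inactivation, had counts of 541 and 725 in WT ESCs and of 824 and 1289 in Pim3-/- ESCs, with a log2 fold change of 0.42 (SE 0.24) with overlapping levels, and was called higher with library totals (0.87, adjusted p = 0.025). Rif1, a replication timing factor, had counts of 695 and 1325 in WT ESCs and of 932 and 1247 in Pim3-/- ESCs, with a log2 fold change of -0.19 (SE 0.26), or 0.25 with library totals.

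Fold changes fell with expression level across the whole table, and the repressors are mostly well expressed. The median log2 fold change was 0.86 for genes under 0 log2 CPM, -0.09 between 4 and 6, -0.41 between 6 and 8 and -0.73 over 8. Of the 34 members, 17 lay above and 17 below the median of their own interval. Between 6 and 8 log2 CPM 6 of 15 members were called lower, beside 39.3% of all genes there. Between 4 and 6, 1 of 15 was lower and 2 were higher, beside 22.4% and 15.3% of all genes. Beside genes of like level, therefore, the share of downregulated repressors was close to or under the background. Relative to the median of its own interval, the log2 fold change of Rcor1 was 1.06 higher, that of Kdm1a 0.95 higher and that of Asf1a differed by -0.999.

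**Figure D3:**
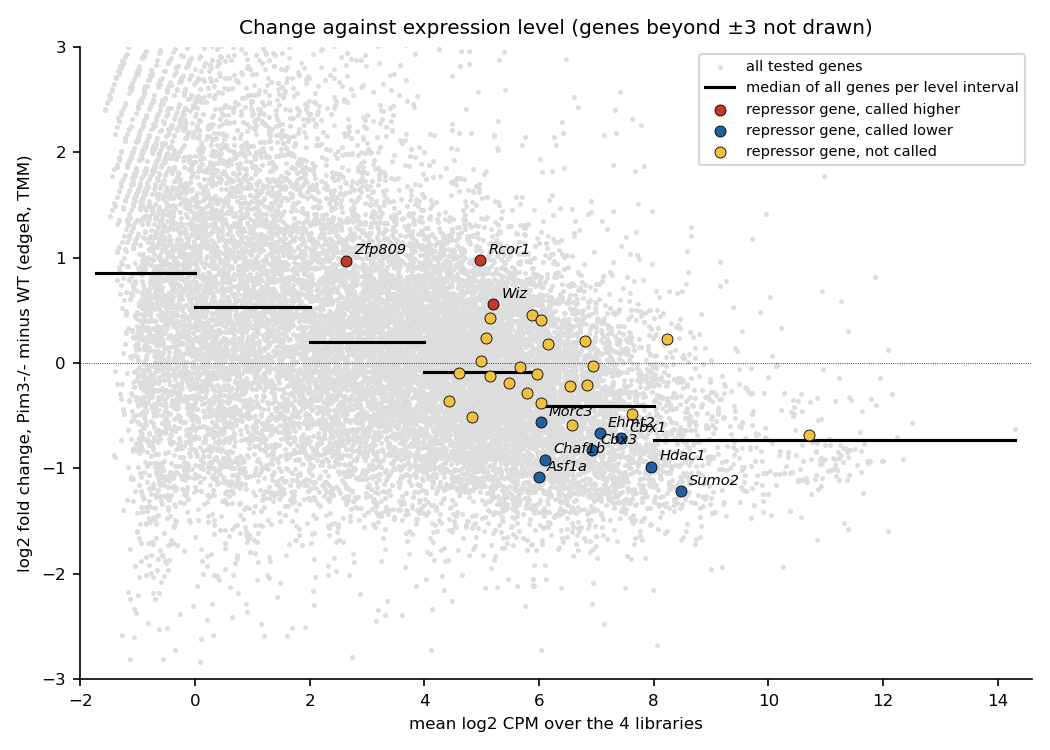
Log2 fold change (Pim3-/- minus WT, y axis) against mean log2 CPM (x axis) for all tested genes in grey, with the median of all genes per interval of level as black lines and the 34 repressor genes as coloured points. The lines descend from 0.86 to -0.73, and the 34 points fall on both sides of them; 391 genes beyond the y axis are not drawn.

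**Figure D4:**
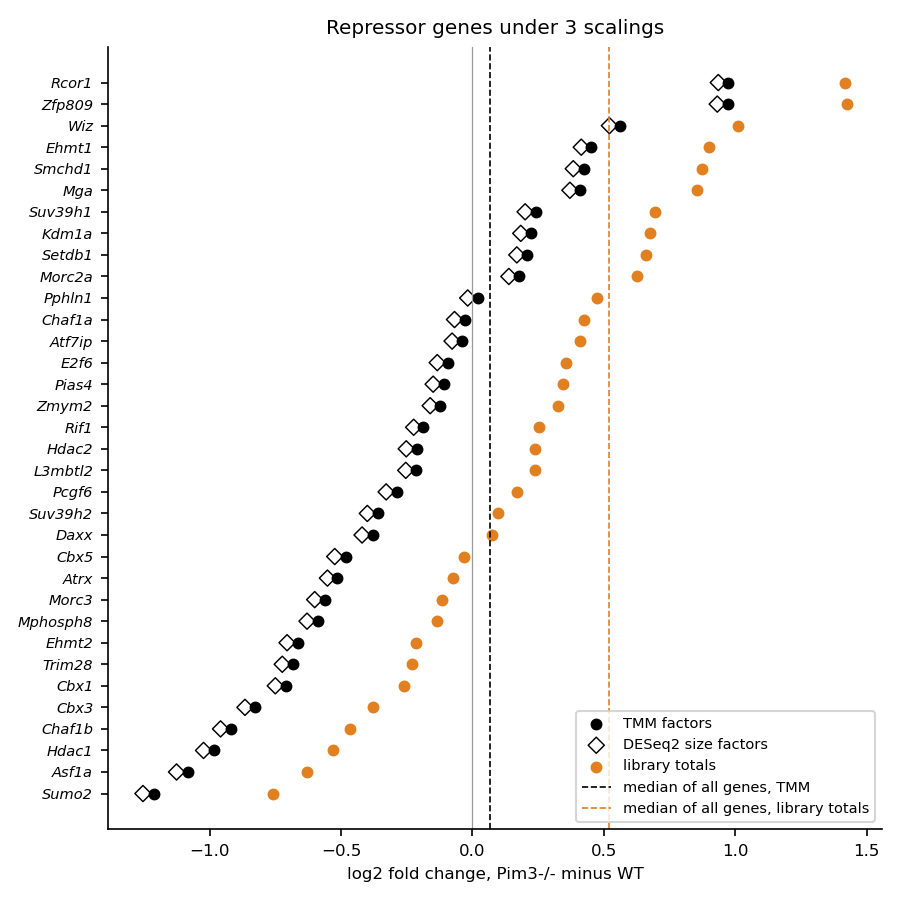
Log2 fold change of each repressor gene (y axis, sorted) with TMM factors, DESeq2 size factors and library totals (x axis), with the median of all genes as dashed lines for TMM (0.07) and library totals (0.52). Each gene moves by about the same amount, so that genes near 0 with TMM, such as Chaf1a and Atf7ip, lie at 0.43 and 0.41 with library totals.

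Partners of these complexes and H3K9 demethylases were listed as 66 genes, 10 of them demethylases. Of 64 tested, 9 rose and 13 fell, a share of 14.1% and 20.3% beside 17.6% and 16.2% of all genes, with a median log2 fold change of -0.04. With library totals 24 rose and 2 fell (37.5% and 3.13%, beside 35.8% and 5.92% of all genes). The same shares of all genes are the background of the smaller lists that follow. LSD1/CoREST partners had 3 of 10 tested higher and 1 lower, with Gse1 at 1.17, Phf21a, a reader of unmethylated H3K4, at 0.87, Rcor2, a CoREST paralog, at 0.75 and Hmg20b at -0.85. SUMO pathway partners had 5 of 14 lower and none higher. Sumo3 had a log2 fold change of -1.08 (SE 0.23, adjusted p = 0.012), and Sae1 and Uba2, the subunits of the SUMO-activating enzyme, had -0.77 and -0.67. None of these 3 was called with library totals.

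Histone chaperone partners had 4 of 11 lower, among them Nasp at -1.07 and Supt16, a subunit of FACT, at -0.79, and 1 higher, Ubn1 of the HIRA complex, at 1.19. Among KAP1, HUSH and G9A partners, Hells, a remodeller, had -0.96, Resf1 -0.82 and Smarcad1 -0.69, while Adnp had 0.86 and Morc2b 2.51. Morc2b had counts of 5 and 2 in WT ESCs and of 27 and 25 in Pim3-/- ESCs, and Adnp shares 82.1% of its exons with the annotated gene Gm20716, so both are less certain. With TMM, edgeR called none of the 7 PRC1.6 partners, while 1 had an unadjusted p under 0.05 and was called by the Wald test, and 2 were called higher with library totals. H3K9 demethylases, which remove the mark that the repressors write, had 3 of 9 tested higher and none lower. Kdm4b had counts of 349 and 485 in WT ESCs and of 2064 and 2525 in Pim3-/- ESCs, with a log2 fold change of 2.14 (SE 0.20, adjusted p = 0.0025), and Phf2 and Phf8 had 1.17 and 0.89.

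Among 27 retroviral and LINE-1 subfamilies of the TE table, 5 rose and 4 fell, while 8.70% of the 828 tested TEs were called, 3.38% higher and 5.31% lower. MERVL-int, the MuERVL body, had counts of 1132 and 1584 in WT ESCs and of 8868 and 6194 in Pim3-/- ESCs, with a log2 fold change of 1.89 (SE 0.16, edgeR adjusted p = 0.00026), and its LTR MT2_Mm had 1.69. RLTR6-int had counts of 108 and 157 in WT ESCs and of 432 and 431 in Pim3-/- ESCs (log2 fold change 1.12, SE 0.15, edgeR adjusted p = 0.0029), and MMVL30-int, of the VL30 elements that ZFP809 can bind, had counts of 121 and 164 in WT ESCs and of 355 and 345 in Pim3-/- ESCs (0.71, SE 0.15, edgeR adjusted p = 0.024). L1Md_A, a young LINE-1 subfamily, had 0.69 and is named after its values were seen. So are the MLV-like MuLV-int, RLTR4_Mm and RLTR4_MM-int, and RLTR6_Mm, none called within the TE table (log2 fold changes 0.06, 0.22, 0.47 and 0.39). MuLV-int had counts of 145 and 171 in WT ESCs and of 111 and 390 in Pim3-/- ESCs, so the clones lay apart. Scaled by the gene table, RLTR4_Mm and RLTR4_MM-int were called higher (0.51 and 0.76). RLTR4_Mm had counts of 296 and 295 in WT ESCs and of 319 and 738 in Pim3-/- ESCs. RLTR4_MM-int had counts of 561 and 793 in WT ESCs and of 751 and 2085 in Pim3-/- ESCs. In CPM of the TE table, Pim3-/- replicate 1 lay below both WT libraries for each, so these 2 calls rest on replicate 2.

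The subfamilies that fell were ERVK elements. RLTRETN_Mm had counts of 2236 and 2427 in WT ESCs and of 1348 and 1220 in Pim3-/- ESCs (log2 fold change -1.46, SE 0.11, edgeR adjusted p = 0.00017), and MMETn-int, ETnERV-int and MMERVK10C-int had -1.40, -1.30 and -0.79. IAPEz-int, a well-known KAP1 and SETDB1 target, was chosen after its values were seen. It had counts of 1731 and 2160 in WT ESCs and of 2654 and 2461 in Pim3-/- ESCs and was not called (log2 fold change -0.20 within the TE table and 0.07 scaled by the gene table). With the scaling of the gene table, 15 of the 27 were called higher and 4 lower, against 25.1% of all TEs called, 21.0% higher and 4.11% lower. The Wald test on all libraries called 9. The calls of edgeR did not hold when a WT library was left out, in fits that leave 1 library in that group.

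**Figure D5:**
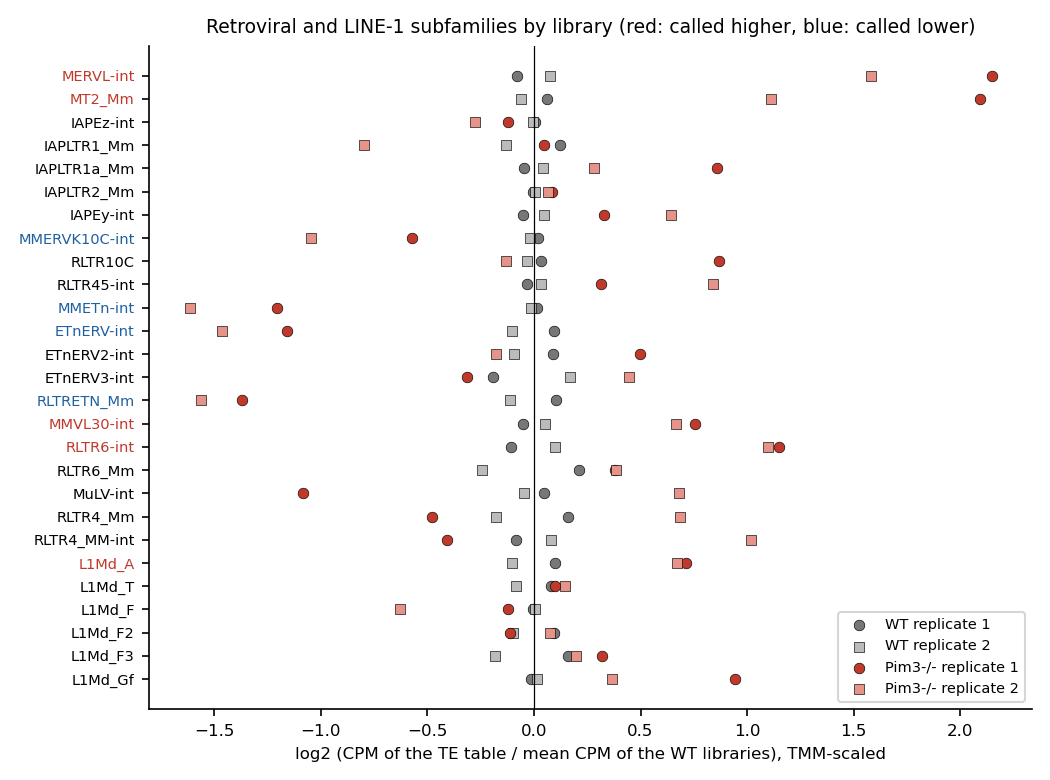
TMM-scaled CPM within the TE table for 27 retroviral and LINE-1 subfamilies (y axis), as the log2 ratio to the mean of the WT libraries (x axis), 1 symbol per library. MERVL-int and MT2_Mm lie farthest to the right, and RLTRETN_Mm, MMETn-int and ETnERV-int farthest to the left, in both Pim3-/- libraries.

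Of 20 germline genes known as PRC1.6 targets, 19 were tested, 8 rose and 1 fell, a share of 42.1% and 5.26% beside the 17.6% and 16.2% of all genes, with a median log2 fold change of 0.61. With library totals 13 rose (68.4%) and none fell, beside 35.8% and 5.92% of all genes. Taf7l, a germ cell TFIID subunit, had counts of 68 and 68 in WT ESCs and of 176 and 737 in Pim3-/- ESCs (log2 fold change 2.42, SE 0.61, adjusted p = 0.022), so the clones differed widely. Mael, a piRNA pathway gene, had counts of 288 and 315 in WT ESCs and of 975 and 1484 in Pim3-/- ESCs (1.70, SE 0.24, adjusted p = 0.0050). Tdrd1 and Tex101 had 1.76 and 1.34 at low counts. Tdrd1 had counts of 8 and 15 in WT ESCs and of 58 and 40 in Pim3-/- ESCs, a call lost in the Wald test. Tex101 had counts of 27 and 29 in WT ESCs and of 114 and 66 in Pim3-/- ESCs, so both are less certain. Hormad1, a meiotic chromosome axis gene, had counts of 121 and 154 in WT ESCs and of 106 and 86 in Pim3-/- ESCs (-0.84, SE 0.28, adjusted p = 0.049), a call lost with library totals, no filter, the stricter filter and the Wald test. Most calls in this list were lost when a WT library was left out, in fits that leave 1 library in that group.

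PRC1.6 is known to reach such promoters through MGA with MAX at the E-box CACGTG and through E2F6 at sites containing GCGGGA, so both words were searched on both strands in RefSeq promoters (GRCm38.p6, 250 bases before to 50 after a start, any promoter of a gene). The E-box was present in 10 of 18 germline targets with a promoter sequence (55.6%), against 8.09% of 27025 genes, and GCGGGA in 10 of 18, against 22.1%. At least 1 of the words was found in 14 of 18 (77.8%), against 27.5% of all genes. The list was chosen as known PRC1.6 targets, so these shares describe that choice and are no result about Pim3-/- ESCs. Among promoters of at least 60% GC, near the 60.8% median of these targets, the background was 12.6% for the E-box, 49.9% for GCGGGA and 55.8% for either word. This cut was applied to the background only and not to the 18 targets, unlike for the repressor genes below. Of the 8 that rose 5 held the E-box and 3 GCGGGA. The 3 promoters shown belong to 2 targets that rose and to the 1 that fell, and all hold an E-box. As they were picked for display and only 1 target fell, they do not show whether the word goes with direction. Capitals mark the words.
Mael (chr1:166238695-166238994, minus strand): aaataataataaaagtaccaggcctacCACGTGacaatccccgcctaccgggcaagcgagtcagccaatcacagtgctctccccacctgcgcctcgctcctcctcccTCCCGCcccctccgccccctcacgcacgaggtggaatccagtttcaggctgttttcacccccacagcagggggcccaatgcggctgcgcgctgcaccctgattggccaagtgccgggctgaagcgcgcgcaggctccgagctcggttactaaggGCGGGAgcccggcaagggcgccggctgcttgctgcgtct
Taf7l (chrX:134476441-134476740, minus strand): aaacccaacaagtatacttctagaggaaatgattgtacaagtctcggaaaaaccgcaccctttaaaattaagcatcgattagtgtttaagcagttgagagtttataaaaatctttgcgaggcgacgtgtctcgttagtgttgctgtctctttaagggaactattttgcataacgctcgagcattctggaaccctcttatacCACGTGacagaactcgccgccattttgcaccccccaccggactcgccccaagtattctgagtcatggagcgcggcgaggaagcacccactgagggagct
Hormad1 (chr3:95559427-95559726, plus strand): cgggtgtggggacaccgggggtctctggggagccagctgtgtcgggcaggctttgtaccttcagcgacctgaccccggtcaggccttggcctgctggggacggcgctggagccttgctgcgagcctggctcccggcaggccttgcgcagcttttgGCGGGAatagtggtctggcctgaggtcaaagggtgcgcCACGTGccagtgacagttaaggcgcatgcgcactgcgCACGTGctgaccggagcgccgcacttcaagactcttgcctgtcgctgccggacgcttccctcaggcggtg

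The repressor genes' own promoters were GC-rich, with a median of 68.0% against 53.3% for all genes, and 31 of the 34 had a sequence. The E-box was found in 3 of 31 (9.68%) and GCGGGA in 15 of 31 (48.4%). Among promoters of at least 60% GC the word was present in 14 of 23 repressor genes (60.9%) and in 49.9% of 8543 genes, a smaller gap than for all promoters. It was present in 5 of 7 genes that fell, 2 of 3 that rose and 8 of 21 not called. Longer E2F words (TTTCCCGC, TTTGGCGC, TTTCGCGC or TTTGCCGC) were found in 2 of 31 (6.45%) against 2.61% of all genes, and an NRF1 and a YY1 consensus, the CRE word TGACGTCA and the ETS word ACTTCCGG each in 0 to 2 of 31. The CAF-1 promoters are shown because the p60 and p150 transcripts diverged. Chaf1b holds 4 copies of GCGGGA, and Chaf1a holds 3 and an E-box, all in capitals.
Chaf1a (chr17:56040166-56040465, plus strand): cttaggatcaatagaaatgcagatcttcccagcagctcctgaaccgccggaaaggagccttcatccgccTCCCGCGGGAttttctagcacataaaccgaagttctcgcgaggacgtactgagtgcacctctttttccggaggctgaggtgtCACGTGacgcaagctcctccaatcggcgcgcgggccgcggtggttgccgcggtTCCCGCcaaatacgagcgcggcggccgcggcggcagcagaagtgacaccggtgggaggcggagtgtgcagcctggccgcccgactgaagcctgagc
Chaf1b (chr16:93883651-93883950, plus strand): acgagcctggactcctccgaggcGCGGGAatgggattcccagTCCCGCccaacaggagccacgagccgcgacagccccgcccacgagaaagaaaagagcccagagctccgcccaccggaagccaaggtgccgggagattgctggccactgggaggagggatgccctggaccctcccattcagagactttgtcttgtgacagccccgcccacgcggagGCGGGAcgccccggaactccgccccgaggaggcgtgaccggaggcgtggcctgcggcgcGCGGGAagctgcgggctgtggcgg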

How the data were processed

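RNA was sequenced from 2 WT and 2 Pim3-/- samples of E14 ESCs. The files deposited by the authors hold raw counts for each gene and each TE subfamily, not normalized. The paper names Cutadapt, Hisat2, mm10, Ensembl genes and RepeatMasker TEs, whereas the submitters' processing notes name Trim Galore, STAR, featureCounts and GRCm38. Versions, strand and the handling of reads with several locations are not given in the sources used here. All columns matched a sample.

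Features with low counts were dropped by edgeR 4.0.16 (filterByExpr, at least 10 counts, total at least 15), leaving 18444 of 31418 genes with a count and 828 of 1072 TEs. After TMM scaling, WT and Pim3-/- libraries were compared by the quasi-likelihood test of edgeR with Benjamini-Hochberg adjustment over all tested genes or TEs, in R 4.3.3. Errors beside means are SDs of 2 libraries. Exact permutation of 2 against 2 libraries cannot go below 0.333, so none was used. Locations, exon lengths and overlaps came from GENCODE vM21 (GRCm38), near-identical copies were coding matches of at least 90% identity over 150 bases, and promoters came from RefSeq (GRCm38.p6). Python 3.11.15 and matplotlib 3.10.9 drew the figures. The fit was tested on simulated counts.

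The members and lists were chosen with earlier results of these data known. All 34 members are named, and of each list up to 4 called genes or TEs per direction with the largest absolute fold change, and Asf1b, except 1 gene that is not reported here. Alternatives were DESeq2 size factors, library totals, no filter, a stricter filter (10 counts or more in each library), DESeq2 1.42.0 (Wald test), a replicate block, TE scaling from the gene table and leaving out each library. Single TE loci and the ChIP-seq data were not analysed here.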

Additional observations from a re-analysis of the deposited data

How the results depend on the processing

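Groups of 2 libraries limit every test, and with 1 library left out the lone library is assumed to vary like the other group. Leaving out each library in turn gave 0 to 7 repressor genes called higher and 0 to 16 lower, 1 to 18 and 1 to 21 partner genes, 1 to 12 and 0 to 3 PRC1.6 germline targets, and 0 to 10 and 0 to 7 retroviral TEs. The low ends came from leaving out a WT library and the high ends from leaving out a Pim3-/- library. Shares of all genes and of all TEs called in these fits are not given, so the counts have no background here. Neither their low nor their high ends are therefore read as a result about these sets, and only fold changes are read from such fits. With library totals 10 repressor genes were called higher and 2 lower, 24 and 2 partner genes and 13 and 0 germline targets, beside 35.8% and 5.92% of all genes. The same scaling gave 8 TEs called higher, and RLTRETN_Mm, MMETn-int, ETnERV-int and MMERVK10C-int remained called lower. The share of all TEs called with library totals is not given, so the count of 8 has no background here. Scaling by the gene table gave 15 TEs called higher, beside 21.0% of all TEs. The count of germline targets called lower was also 0 without a filter, with at least 10 counts in every library and in the Wald test. Other counts over these 4 sets stayed within 1.5 times. In the smaller lists, library totals gave 7 of 9 H3K9 demethylases and 6 of 10 LSD1/CoREST partners called higher, 3 of 14 SUMO pathway partners and 3 of 11 histone chaperone partners higher with 1 lower in each, 3 of 13 KAP1, HUSH and G9A partners higher, and 4 of 10 ESC markers higher and 1 lower. Beside 35.8% of all genes called higher, the last 4 lists had 21.4%, 27.3%, 23.1% and 40%, near or under that background.

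Among the members, signs changed only for genes that were not called. With library totals log2 fold changes became 0.41 for Atf7ip, 0.24 for Hdac2, 0.33 for Zmym2, 0.43 for Chaf1a, 0.073 for Daxx, 0.097 for Suv39h2, 0.17 for Pcgf6, 0.24 for L3mbtl2, 0.36 for E2f6, 0.35 for Pias4 and 0.25 for Rif1. Pphln1 became -0.018 with size factors and in the Wald test and -0.011 without a filter, and with at least 10 counts in every library Atf7ip became 0.042 and Chaf1a 0.053. With a library left out, log2 fold changes ranged from -0.11 to 0.11 for Pphln1, -0.17 to 0.0037 for Atf7ip, -0.24 to 0.13 for Chaf1a, -0.075 to 0.44 for Kdm1a, -0.26 to 0.023 for E2f6 and -0.54 to 0.12 for Rif1. The causes were not tested.

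Samples share replicate numbers across groups, and same-numbered samples did not deviate together (r = 0.039 across genes). The Pim3-/- libraries differed more from each other (r = 0.975) than the WT libraries did (r = 0.995). With 2 libraries per group, this does not show whether the numbers pair the samples. With the replicate number as a block, 3 repressor genes were called higher and 9 lower, with Mphosph8 added, and of the other genes named Uba2 and Hormad1 were no longer called.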
